A study of Mus musculus with 14 samples.

Results

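The 10 genes of the skeleton that do not encode collagens were followed through the RNA-seq libraries of a study on *Taf9b*, in which newborn spinal column, with its vertebrae, was sequenced beside spinal cord. The genes are *Acan*, *Matn1*, *Matn3* and *Comp* of the cartilage matrix, the osteoblast transcription factors *Runx2* and *Sp7*, and *Ibsp*, *Spp1*, *Bglap* and *Dmp1* of the mineralized bone matrix. They were chosen by symbol, matched through the RefSeq identifiers of the tables, and all 10 were found among the 23152 loci that each table lists.

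The study compared cells and tissues labelled WT and *Taf9b* KO, and TAF9B is a TAF paralog that it examined for a role in motor neuron genes. Mouse ES cells of the JM8 clone (WT) and of the Taf9b_BG10 clone (labelled TAF9B -/-), both C57BL/6 and 1 clone per genotype, were sequenced undifferentiated and as embryoid bodies (EBs) after 2, 4 and 6 days with retinoic acid and the smoothened agonist SAG. In the KO allele a *LacZ-Neo* cassette takes the place of the coding exons of *Taf9b*. Lumbar spinal column came from newborn WT and KO littermates and spinal cord from newborn WT mice, also C57BL/6, with no age in days, sex or number of animals given in the labels. Each of these 11 conditions has 1 poly-A library, so no value below has a replicate, an SD or a test, and each ratio compares a pair of libraries. All levels are FPKM as deposited, that is, mapped fragments relative to transcript length and library size. The tables hold no read counts, so the depth behind a value is unknown.

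Cartilage is built by chondrocytes, which embed large proteoglycan aggregates and linker proteins in a collagen network. In the vertebrae most of this cartilage is later replaced by bone, which osteoblasts lay down and mineralize and in which they become embedded as osteocytes. RUNX2 and, after it, SP7 (osterix) are needed for osteoblasts to form, and the acidic phosphoproteins and osteocalcin that osteoblasts secrete bind the mineral.

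The level of *Taf9b* itself was checked first. It was at 0.537 FPKM in ES cells labelled WT and at 3.06 FPKM in those labelled KO, at 0.516 and 4.08 FPKM in EBs of day 2, at 1.96 and 4.27 FPKM at day 4, and at 1.37 and 4.01 FPKM at day 6. In every culture pair the library labelled KO was thus the higher one, against its label. In spinal column *Taf9b* was at 6.65 FPKM in WT and at 3.31 FPKM in KO, and in spinal cord at 7.44 FPKM. The tables give 1 value per locus, so reads from the replaced coding exons and from the rest of the transcript cannot be told apart. The 10 neuron markers read in the day 6 EBs summed to 1070 FPKM in the library labelled WT and 138 FPKM in that labelled KO. Of these readings only the *Taf9b* levels in culture ran against the labels, and their origin was not tested. WT and KO are used below as the names that the labels give the libraries.

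The sequences before the start sites are shown for the 4 genes of the mineralized matrix, because they are the mineralized matrix genes among the 10 and because RUNX2, an osteoblast factor that acts on such genes, is among them as well. Each line gives the 250 bases upstream of the gene's start in mm9, read 5′ to 3′ on the strand of the gene. Capitals mark the RUNX core letters TGTGGT or their reverse complement ACCACA. The window of *Spp1* is chr5:104863880-104864129 and that of *Ibsp* is chr5:104728056-104728305, both on the plus strand. The window of *Dmp1* is chr5:104631386-104631635 on the plus strand and that of *Bglap* is chr3:88188387-88188636 on the minus strand.

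Spp1: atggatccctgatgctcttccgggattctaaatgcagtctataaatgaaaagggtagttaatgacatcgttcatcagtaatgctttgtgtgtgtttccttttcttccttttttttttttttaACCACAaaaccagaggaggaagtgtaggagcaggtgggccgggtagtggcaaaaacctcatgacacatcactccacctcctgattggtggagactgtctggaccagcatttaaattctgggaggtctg
Ibsp: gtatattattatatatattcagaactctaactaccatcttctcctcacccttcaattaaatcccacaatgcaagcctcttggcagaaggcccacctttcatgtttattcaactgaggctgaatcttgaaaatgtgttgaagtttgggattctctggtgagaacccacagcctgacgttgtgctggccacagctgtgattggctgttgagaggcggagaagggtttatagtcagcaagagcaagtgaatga
Dmp1: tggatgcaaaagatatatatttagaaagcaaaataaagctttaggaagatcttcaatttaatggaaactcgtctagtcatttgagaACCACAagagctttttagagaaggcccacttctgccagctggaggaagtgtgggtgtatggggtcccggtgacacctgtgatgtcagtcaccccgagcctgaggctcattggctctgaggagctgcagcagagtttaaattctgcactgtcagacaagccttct
Bglap: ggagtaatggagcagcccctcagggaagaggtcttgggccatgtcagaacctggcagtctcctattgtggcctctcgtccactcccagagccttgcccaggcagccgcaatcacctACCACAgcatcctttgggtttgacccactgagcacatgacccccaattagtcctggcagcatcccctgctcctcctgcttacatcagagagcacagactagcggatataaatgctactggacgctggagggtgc

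The RUNX letters stood once in the windows of *Spp1* (first base at -128 from the start), *Bglap* (-134) and *Dmp1* (-164), and not in that of *Ibsp*. Among the other genes they stood once before *Matn1* (-134) and *Runx2* (-174), which makes 5 of the 10 genes. Searched in the same way on both strands, 2297 of 19837 windows of all loci (11.6%) held these letters. The letters TATAAA stood on either strand before *Ibsp*, *Spp1* and *Bglap*, in 3 of the 10 windows against 11.6% of all, and in *Bglap* on the sense strand at -29. These matches describe letters and not sites that a factor was seen to use.

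*Acan*, *Matn1*, *Matn3* and *Comp*, the cartilage matrix genes, were all far higher in spinal column than in spinal cord. The column and cord libraries stand in separately normalized tables, so a ratio between them also carries the scale of each table. *Acan* (NM_007424, chromosome 7, 86198369 to 86259985) encodes aggrecan, the large proteoglycan that holds water in cartilage. It was at 8.10 FPKM in column WT, at 4.46 FPKM in column KO and at 0.320 FPKM in cord. Its ratio was 25.3-fold for column WT over cord and 13.9-fold for column KO over cord, so that the KO library stood lower than the WT library and both stood far above the cord.

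*Matn1* (NM_010769, chromosome 4, 130500300 to 130511391) encodes matrilin 1, an adaptor protein between collagen fibrils and aggrecan. It was at 3.94 FPKM in column WT, 4.51 FPKM in column KO and 0.154 FPKM in cord, or 25.6-fold and 29.3-fold above the cord. *Matn3* (NM_010770, chromosome 12, 8954735 to 8978834), for the related matrilin 3, was at 2.97, 3.30 and 0.117 FPKM in the same libraries, or 25.5-fold and 28.3-fold above the cord. The ratios of *Acan*, *Matn1* and *Matn3* rest on cord values under 1 FPKM, and with 1 FPKM added to both values the log2 ratios of column WT over cord were 2.79, 2.10 and 1.83, in place of 4.66, 4.68 and 4.67.

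*Comp* (NM_016685, chromosome 8, 72897447 to 72905965) encodes cartilage oligomeric matrix protein, which binds collagens in cartilage and also in tendon. It had the highest level of the 4, at 12.7 FPKM in column WT and 12.8 FPKM in column KO against 0.238 FPKM in cord. Both ratios were above 50-fold, at 53.3-fold and 54.0-fold.

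Both osteoblast transcription factors were low even in spinal column. *Runx2* (NM_001145920, chromosome 17, start at 44951746 on the minus strand) was at 2.43 FPKM in column WT, 1.21 FPKM in column KO and 0.225 FPKM in cord. That is 10.8-fold above the cord in WT and 5.38-fold in KO, the lowest ratio among the 10 genes in the KO library. With 1 FPKM added to both values the log2 ratios of *Runx2* were 1.48 in WT and 0.85 in KO, so in KO it was not past 2-fold. The gene body of *Runx2* overlaps that of *Supt3* on the opposite strand, and the tables place both in a single locus of 44740950 to 45256233. *Supt3*, for a subunit of the SAGA complex, was at 8.87 FPKM in column WT, 12.0 FPKM in column KO and 6.32 FPKM in cord. Whether the counting used strand is not stated, so reads of both genes may not be fully separable.

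*Sp7* (NM_130458, chromosome 15, 102187608 to 102196702), which acts after *Runx2* in osteoblasts, was at 3.66 FPKM in column WT, 4.68 FPKM in column KO and 0.451 FPKM in cord. Its ratios were 8.11-fold and 10.4-fold, and in WT it had the lowest ratio of the 10 genes.

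The 4 genes of the mineralized matrix were far higher in column as well. *Ibsp* (NM_008318, chromosome 5, 104728306 to 104740491) encodes bone sialoprotein, which binds calcium and starts mineral formation. It was at 109 FPKM in column WT, 168 FPKM in column KO and 1.62 FPKM in cord, or 67.0-fold and 104-fold above the cord. *Spp1* (NM_001204201, chromosome 5, 104864130 to 104870072) encodes osteopontin, a phosphoprotein of bone that many other cells also secrete. It was at 784 FPKM in column WT, 899 FPKM in column KO and 5.82 FPKM in cord, or 135-fold and 154-fold above the cord. It ranked as number 106 of 18261 loci above 0 in column WT and as number 8201 of 17365 in cord.

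*Dmp1* (NM_016779, chromosome 5, 104631636 to 104643121) encodes dentin matrix protein 1, which is typical of osteocytes. It was at 8.90 FPKM in column WT, 6.70 FPKM in column KO and 0.0955 FPKM in cord, or 93.2-fold and 70.2-fold above the cord. *Bglap* (NM_001037939, chromosome 3, 88187417 to 88188386) encodes osteocalcin, the vitamin K dependent protein of mature osteoblasts. It was at 14.4 FPKM in column WT, 20.5 FPKM in column KO and is listed at 0 in cord, so no ratio is given. Of the genes with a ratio, *Spp1*, *Dmp1* and *Ibsp* had the highest ones in column WT, but with 1 FPKM added to both values *Dmp1* had a log2 ratio of 3.18, under the 3.47 of *Comp*. *Ibsp* and *Spp1* were the only members of the 10 above 1 FPKM in cord, and *Spp1* alone made up most of the summed level of the 10 genes in column WT, which was 950 FPKM with it and 166 FPKM without it.

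**Figure D1:**
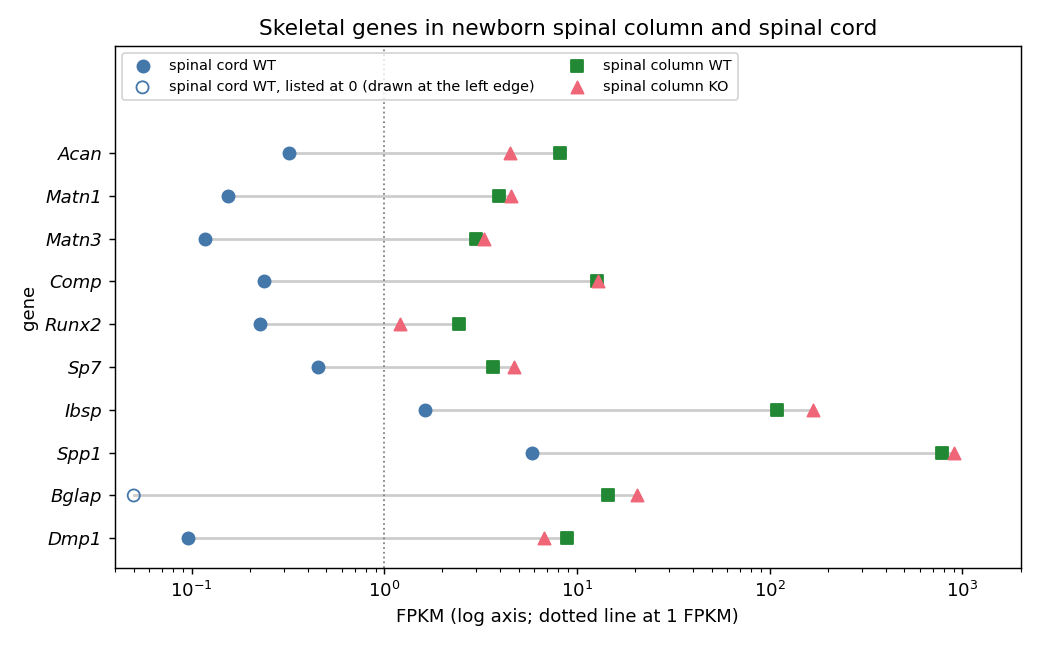
FPKM of each gene on a log axis in spinal cord WT (circles), spinal column WT (squares) and spinal column KO (triangles), 1 library each. All 10 genes stand above 1 FPKM in both column libraries, and 8 stand below 1 FPKM in cord, *Bglap* being listed at 0 there.

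Counted together, 10 of 10 genes were more than 2-fold higher in column WT than in cord, and all 10 were also past 4-fold. Over all loci at any level 23.2% were past 2-fold in that direction and 18.6% in the other, and of the 14111 loci above 1 FPKM in at least 1 of both libraries 17.3% and 16.0%. The median log2 ratio of the 10 genes was 5.21, against -0.07 over those 14111 loci, and with 1 FPKM added to both values it was 2.98 against -0.06, with the 10 genes between 1.48 and 6.85. In column KO against cord 10 of 10 were again past 2-fold higher, against a background of 30.0% higher and 25.2% lower at any level, and of 26.6% and 23.3% above 1 FPKM. The median was 5.31 against 0.08, and 2.54 against 0.07 with 1 FPKM added, with the 10 genes then between 0.85 and 7.04. With 1 FPKM added *Runx2* was no longer past 2-fold in column KO, which left 9 of 10. Both comparisons use the same cord library, so the latter is no second observation of the cord. All 10 genes passed the limit of 1 FPKM through the column libraries, which makes the counts at any level the ones to read.

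The order of the levels in column WT ran from *Spp1* and *Ibsp* through *Bglap*, *Comp*, *Dmp1* and *Acan* to *Matn1*, *Sp7*, *Matn3* and *Runx2*. In column KO it ran from *Spp1* and *Ibsp* through *Bglap*, *Comp* and *Dmp1* to *Sp7*, *Matn1*, *Acan*, *Matn3* and *Runx2*. The orders differed in *Acan* and *Sp7*, which exchanged places. With 1 library each, neighbours as close as *Dmp1* at 8.90 FPKM and *Acan* at 8.10 FPKM in WT cannot be put in order beyond these libraries. FPKM is scaled to transcript length, so these are levels per length.

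Other genes of the same tissues, from lists that do not hold the 10 genes, were set beside them. Of 20 other cartilage genes, 12 were more than 2-fold higher in column WT than in cord and 5 more than 2-fold lower, with a median log2 ratio of 2.49. *Cnmd* (chondromodulin, at 13.4 and 0.303 FPKM) and *Pax1* (a factor of the sclerotome, at 4.64 and 0.234 FPKM) were among the 3 with the highest ratios, and *Epyc* was at 1.03 FPKM in column and listed at 0 in cord. *Sox5* (1.20 and 3.35 FPKM), *Fgfr3* (13.5 and 36.6 FPKM) and *Mia* (14.5 and 36.6 FPKM) had the lowest ratios and were higher in cord. *Sox9*, the main transcription factor of chondrocytes, which neural progenitors and glia also express, was at 3.99 FPKM in column and 8.06 FPKM in cord. The 4 cartilage matrix genes among the 10 had a median of 4.67, so the other cartilage genes were the more mixed group.

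Of 20 other osteoblast and bone matrix genes, 16 were past 2-fold higher in column WT and 2 lower, with a median of 2.81. *Tnfsf11* (RANKL, the factor that drives osteoclast formation) was at 1.91 FPKM and *Bglap2* at 7.90 FPKM in column, both listed at 0 in cord. *Smpd3* (14.2 and 25.9 FPKM), *Tnfrsf11b* (1.46 and 0.979 FPKM) and *Alpl* (14.5 and 6.92 FPKM) had the lowest ratios among those above 1 FPKM. Of 12 osteoclast genes, the cells that resorb bone, 9 were past 2-fold higher and none lower, led by *Ocstamp*, listed at 0 in cord, and *Acp5* at 169 against 1.32 FPKM. Genes of the cells that build bone and of the cells that resorb it were therefore both higher in the column library.

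The labels call one tissue spinal column and the other spinal cord, and markers of their cell types were read in both. The 10 neuron markers summed to 1146 FPKM in column WT, 630 FPKM in column KO and 2374 FPKM in cord, so the column held cord or nerve tissue as well. Of the 10 astrocyte and oligodendrocyte markers 7 were past 2-fold lower in column WT than in cord and none higher, of the 5 red cell markers none was past 2-fold, and of the 9 macrophage markers 3 were higher and none lower. The 6 skeletal muscle markers with a value in column, whose sum was 5260 FPKM in WT and 6886 FPKM in KO, were all past 2-fold higher there than in cord, where the same 6 summed to 34.7 FPKM. *Acta1*, *Ckm*, *Myh8* and *Mylpf* have no usable value in column, because the authors' program gave them the status HIDATA. The tendon and fibroblast markers, 8 of 10 past 2-fold higher in column WT, summed to 871 FPKM in WT, 1106 FPKM in KO and 192 FPKM in cord. The collagen genes *Col1a1* and *Col1a2* of bone and fibrous tissue, *Col2a1* of cartilage and *Col10a1* of hypertrophic cartilage were all past 2-fold higher in column WT than in cord. In column KO against column WT *Col1a1* was at 753 against 1423 FPKM, *Col1a2* at 826 against 1017 FPKM, *Col2a1* at 83.6 against 156 FPKM and *Col10a1* at 57.7 against 40.6 FPKM. Thus 3 of these 4 were lower in column KO, none past 2-fold, with a median log2 ratio of -0.60. In bulk tissue fewer cells of a type and less RNA per cell cannot be told apart, and the part of these tissue shares in the levels of the 10 genes was not tested.

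**Figure D2:**
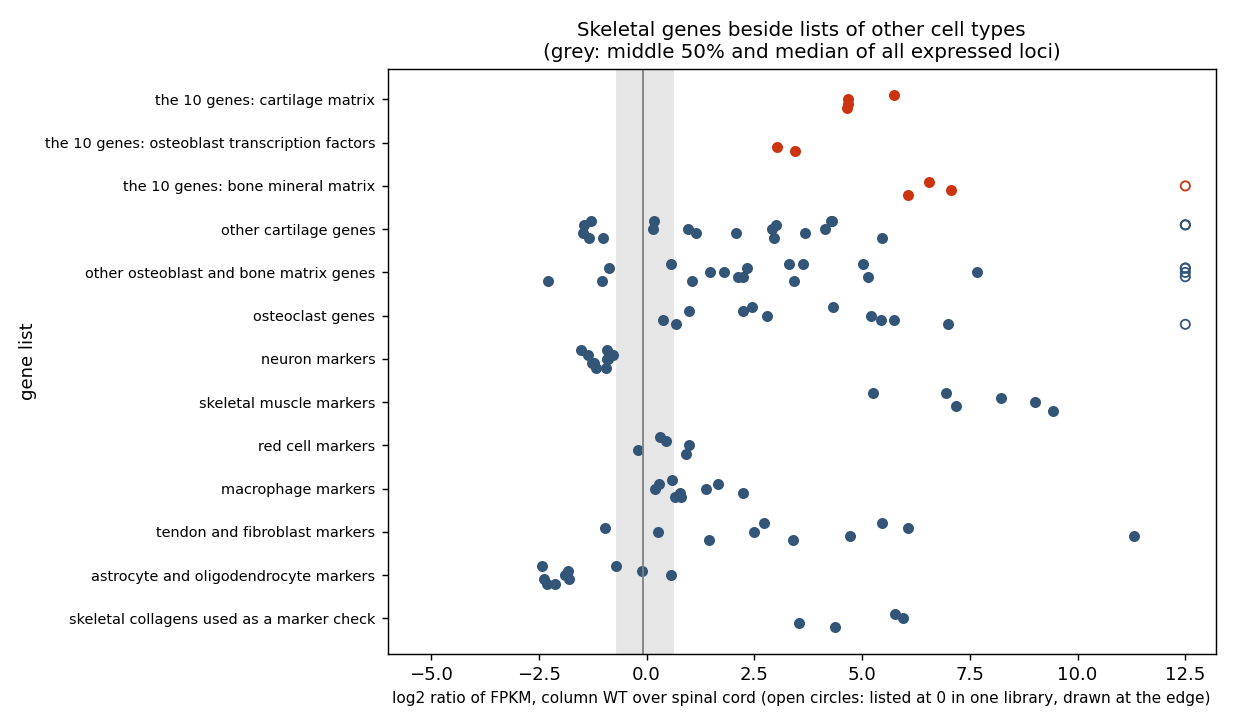
Log2 ratio of FPKM, spinal column WT over spinal cord, for each gene of 13 lists, with 1 point per gene and with genes listed at 0 in one library as open circles at the right edge. The 10 genes (red) lie from 3.02 upwards, while all 10 neuron markers lie below 0 and the grey band holds the middle of all expressed loci, from -0.68 to 0.62.

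Between the column libraries labelled KO and WT the 10 genes did not move in one direction. Of the 10, 7 had a higher value in KO and 3 a lower one, and only *Runx2* was past 2-fold, with a ratio just beyond it. *Runx2* was at 2.43 FPKM in WT and 1.21 FPKM in KO, a log2 ratio of -1.01, and *Acan* at 8.10 and 4.46 FPKM had a log2 ratio of -0.86. *Dmp1*, with a log2 ratio of -0.41, was the third gene that was lower in KO. The call of *Runx2* was lost when 0.1 FPKM was added to both values, which gave -0.95, and with 1 FPKM added it was -0.63.

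Among the genes with a higher value in KO, *Ibsp* had the largest log2 ratio, 0.63, from 109 to 168 FPKM. *Bglap* followed with 0.51 and *Sp7* with 0.35. *Spp1* and *Matn1* each had 0.20, *Matn3* had 0.15 and *Comp* had 0.02, so *Comp* was nearly level between the libraries. The share past 2-fold lower over all loci was 14.5% at any level and 8.51% above 1 FPKM, and past 2-fold higher it was 13.8% and 9.07%. The count of 1 lower and 0 higher among 10 is near this background. The median of the 10 genes was 0.17 against 0.06 over 14194 loci, and all 10 lay between the 5th and the 95th percentile of those loci, -1.24 and 1.25.

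The ratio of the column libraries went with transcript length over the whole table, and the 10 genes span that range. Over 12317 loci above 1 FPKM in both libraries Spearman's rho between transcript length and log2 ratio was -0.62, a value across genes, which are not independent replicates. The median log2 ratio was 0.85 for transcripts of up to 1000 bases and 0.47 up to 2000 bases. It was 0.07 up to 4000 bases, -0.36 up to 8000 bases and -0.90 above that. The same rho was -0.38 for column KO over cord, -0.12 for column WT over cord and -0.16 for the ES cell libraries, KO over WT. For the EB libraries of days 2, 4 and 6 it was -0.01, 0.08 and 0.07.

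*Acan*, with 7355 bases, and *Runx2*, with 6463 bases, are the longest transcripts of the 10 and had the lowest ratios. *Bglap*, with 440 bases, is the shortest. When the trend was subtracted, an alternative chosen after the trend was seen, *Runx2* moved to -0.46 and *Acan* to -0.20, and no gene was past 2-fold. *Dmp1*, in contrast, moved further down, from -0.41 to -0.51. *Ibsp* moved from 0.63 to 0.38, *Sp7* from 0.35 to 0.29 and *Matn3* from 0.15 to 0.11, each keeping its sign. *Bglap* turned to -0.56, *Spp1* to -0.25, *Comp* to -0.15 and *Matn1* to -0.08. The direction of these 4 genes thus depends on the treatment of length. Library preparation, RNA quality and biology cannot be told apart as the origin of the trend, since each genotype has 1 library.

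**Figure D3:**
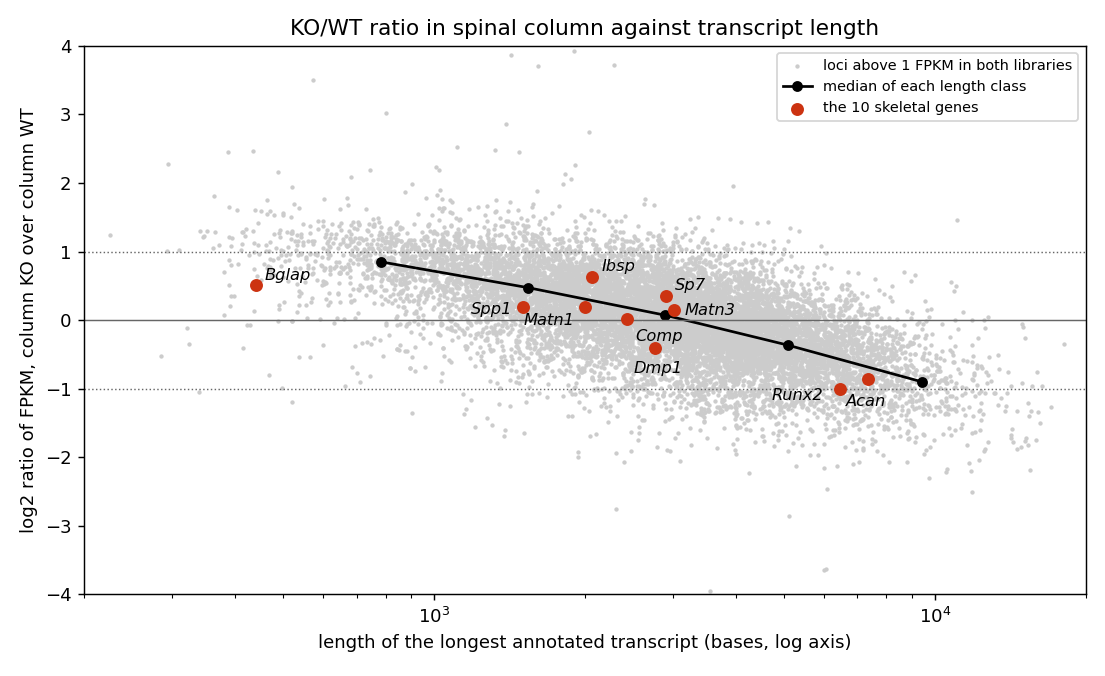
Log2 ratio of FPKM, column KO over column WT, against the length of the longest annotated transcript on a log axis, for loci above 1 FPKM in both libraries (grey, with 22 of 12317 outside the axes), the median of each of 5 length classes (black) and the 10 genes (red). *Acan* and *Runx2* lie at the long end, where the line of medians is below 0, and the other 8 genes lie between -0.41 and 0.63.

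Cell type markers also moved between these libraries. All 10 neuron markers were lower in column KO, 7 of them past 2-fold, with a median log2 ratio of -1.09, and all but 1 of the 10 astrocyte and oligodendrocyte markers were lower, with a median of -0.68. Of the tendon and fibroblast markers 7 of 10 were higher, with a median of 0.69, and of the muscle markers 3 of 6. Of the 5 red cell markers 4 were higher, 3 of them past 2-fold, with a median of 1.09. Only 3 of the 5 were above 1 FPKM in at least 1 library, with 1 past 2-fold higher and none lower. Of the 9 macrophage markers 6 were higher, 1 past 2-fold and 1 past 2-fold lower, with a median of 0.44. Of the 20 other bone genes 14 were higher in KO and 5 past 2-fold, with a median of 0.48, led by *Dlx3* (0.811 to 2.72 FPKM), *Ifitm5* (9.60 to 25.2 FPKM) and *Panx3* (1.26 to 2.89 FPKM). Of the 20 other cartilage genes 13 were lower in KO and 3 past 2-fold, with a median of -0.28. *Snorc* (11.3 to 24.1 FPKM) had the highest ratio and *Sox5* (1.20 to 0.563 FPKM) the lowest. The osteoclast genes were split 6 to 6. The part of transcript length and of tissue shares in these values was not tested gene by gene.

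*Bglap* has a close copy, *Bglap2*, near it on chromosome 3 (88181658 to 88182621), which bears on how its reads were assigned. The last 150 coding bases of both genes, from GENCODE vM1, are shown because they are nearly the same. Capitals mark the 1 position in this stretch at which they differ.

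Bglap: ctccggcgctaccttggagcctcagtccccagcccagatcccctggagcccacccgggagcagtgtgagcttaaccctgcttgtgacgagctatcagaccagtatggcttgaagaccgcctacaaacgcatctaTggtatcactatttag
Bglap2: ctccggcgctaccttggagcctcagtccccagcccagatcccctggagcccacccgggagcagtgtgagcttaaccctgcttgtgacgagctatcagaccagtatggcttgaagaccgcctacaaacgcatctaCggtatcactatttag

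Over all 288 coding bases *Bglap2* differed from *Bglap* at 4 positions (98.6% identity). Of the 25-base words of *Bglap*, 82.2% also occur in *Bglap2*, so reads from these genes may not all have been placed. The read length is not given in the sources used here, and the FPKM values of both genes are uncertain. *Bglap2* was at 7.90 FPKM in column WT and 14.6 FPKM in column KO. Both genes were thus higher in column KO, before the length trend is considered, and listed at 0 in cord.

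*Dmp1*, *Ibsp* and *Spp1* also lie together, in a cluster on chromosome 5 that runs over 270 kb from *Dspp* (start at 104599731) to the end of *Spp1* (104870072) and includes *Mepe*. These 5 genes encode related acidic phosphoproteins of bone and tooth. *Mepe*, an osteocyte gene, was at 0.669 FPKM in column WT, 0.639 FPKM in column KO and 0 in cord. *Dspp*, whose product is the main phosphoprotein of dentin, was at 0.0150 FPKM in column WT, 0 in column KO and 0.0735 FPKM in cord. Neighbours in the cluster therefore had very different levels in the same tissue.

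The cluster was also uneven in culture. *Spp1* was at 963 FPKM in ES cells labelled WT, where it ranked as number 112 of 18325 loci above 0, and *Ibsp*, *Dmp1*, *Mepe* and *Dspp* were between 0 and 0.0217 FPKM in the same library.

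In ES cells and EBs *Spp1* was high, *Comp* and *Matn3* reached up to 3.19 and 2.63 FPKM, and the other 7 genes stayed at 1.16 FPKM or less. The number of them above 1 FPKM was 3 in ES cells WT and 4 in ES cells KO, 2 in both libraries of day 2, 2 in WT and 3 in KO at day 4, and 1 in WT and 2 in KO at day 6. Of all loci 51.3% were above 1 FPKM in ES cells WT and 51.2% in ES cells KO, 50.6% and 50.4% at day 2, 50.6% and 53.0% at day 4, and 53.3% and 53.5% at day 6. In both column libraries 10 of 10 were above it, against 58.6% and 58.9% of all loci, and 2 of 10 in cord, against 56.5%.

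**Figure D4:**
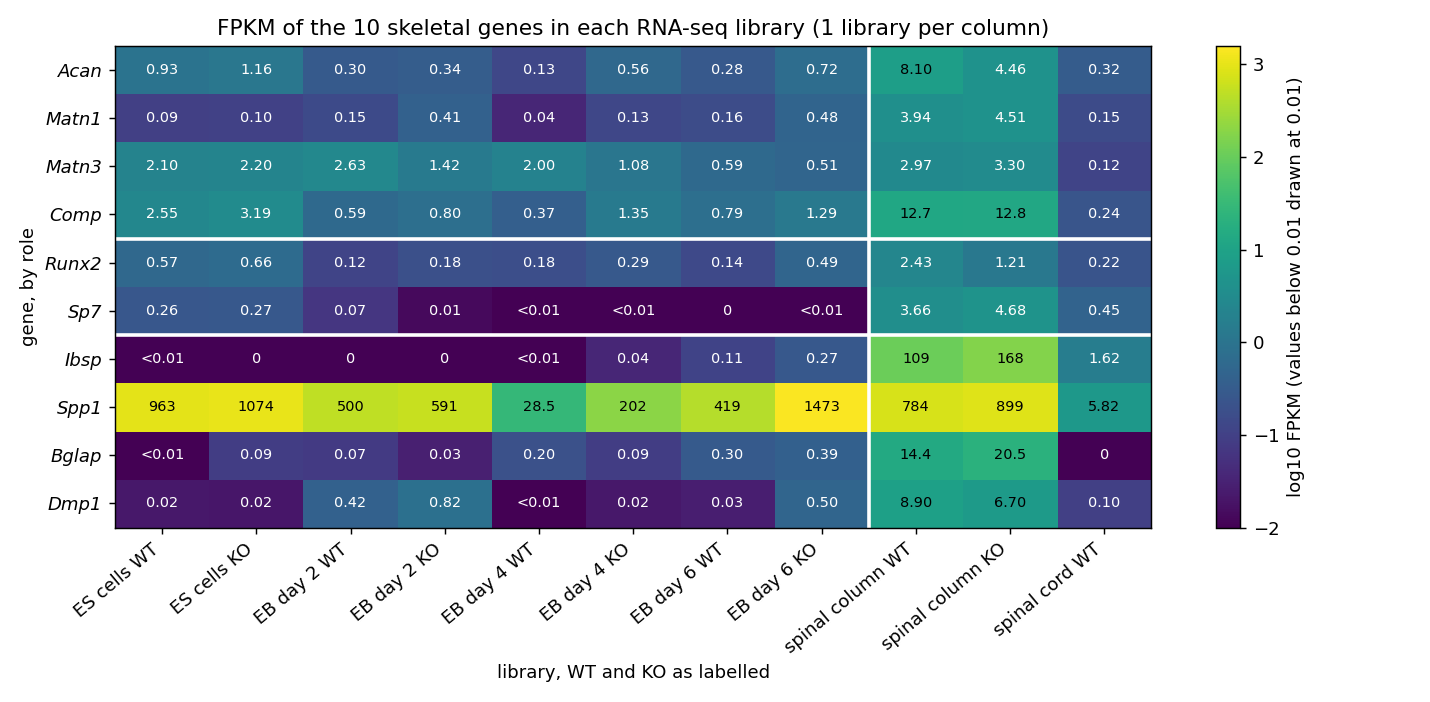
FPKM of the 10 genes (rows, by role) in the 11 RNA-seq libraries (columns), with the value printed in each cell and log10 FPKM as the colour. *Spp1* is at 28.5 FPKM or more in all culture and column libraries, while the other 9 genes are at 3.19 FPKM or less in every culture library.

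*Spp1* had its lowest culture level at day 4 in both genotypes. In libraries labelled WT the undifferentiated cells had 963 FPKM, EBs of day 2 had 500 FPKM, those of day 4 had 28.5 FPKM and those of day 6 had 419 FPKM. In libraries labelled KO it was at 1074, 591, 202 and 1473 FPKM. The KO value was the higher one each time, with log2 ratios of 0.16 for ES cells and of 0.24, 2.82 and 1.81 for the EBs of days 2, 4 and 6. The KO library of day 6 held the highest *Spp1* level of all 11 libraries, above both column libraries. Levels at different days come from separately normalized tables.

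The 4 cartilage matrix genes among the 10 summed to between 1.82 and 6.65 FPKM in the culture libraries, against 27.7 FPKM in column WT. The 20 other cartilage genes summed to between 15.3 and 53.0 FPKM in culture and to 262 FPKM in column WT. *Acan* was at 0.934 and 1.16 FPKM in ES cells WT and KO, 0.297 and 0.344 FPKM at day 2, 0.129 and 0.560 FPKM at day 4, and 0.279 and 0.724 FPKM at day 6. *Comp* was at 2.55 and 3.19 FPKM in ES cells, 0.589 and 0.802 FPKM at day 2, 0.373 and 1.35 FPKM at day 4, and 0.787 and 1.29 FPKM at day 6. Both were highest in ES cells among the culture stages and higher in the KO library at each stage.

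*Matn3* went the other way. It was at 2.10 and 2.20 FPKM in ES cells, 2.63 and 1.42 FPKM at day 2, 2.00 and 1.08 FPKM at day 4, and 0.593 and 0.508 FPKM at day 6, and the KO library was the lower one from day 2 on. *Matn1* stayed between 0.0358 and 0.481 FPKM in all culture libraries. In column WT *Matn3* was at 2.97 FPKM, near its WT levels in ES cells and in EBs of days 2 and 4.

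*Runx2* was at 0.568 and 0.662 FPKM in ES cells, 0.116 and 0.182 FPKM at day 2, 0.179 and 0.288 FPKM at day 4, and 0.142 and 0.493 FPKM at day 6. *Sp7* was at 0.256 and 0.273 FPKM in ES cells and at 0.0675 FPKM or less in all EB libraries, with 0 in WT at day 6. Neither osteoblast factor reached 1 FPKM in culture.

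The bone matrix genes other than *Spp1* stayed under 1 FPKM in culture as well. *Ibsp* had its highest culture value at day 6, with 0.113 FPKM in WT and 0.272 FPKM in KO, and it was listed at 0 in 3 culture libraries. *Bglap* ranged from 0.00621 to 0.392 FPKM. *Dmp1* was at 0.0217 and 0.0209 FPKM in ES cells, 0.416 and 0.815 FPKM at day 2, 0.00235 and 0.0217 FPKM at day 4, and 0.0273 and 0.496 FPKM at day 6. Its values at day 2 were thus above those of day 4 in both genotypes.

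**Figure D5:**
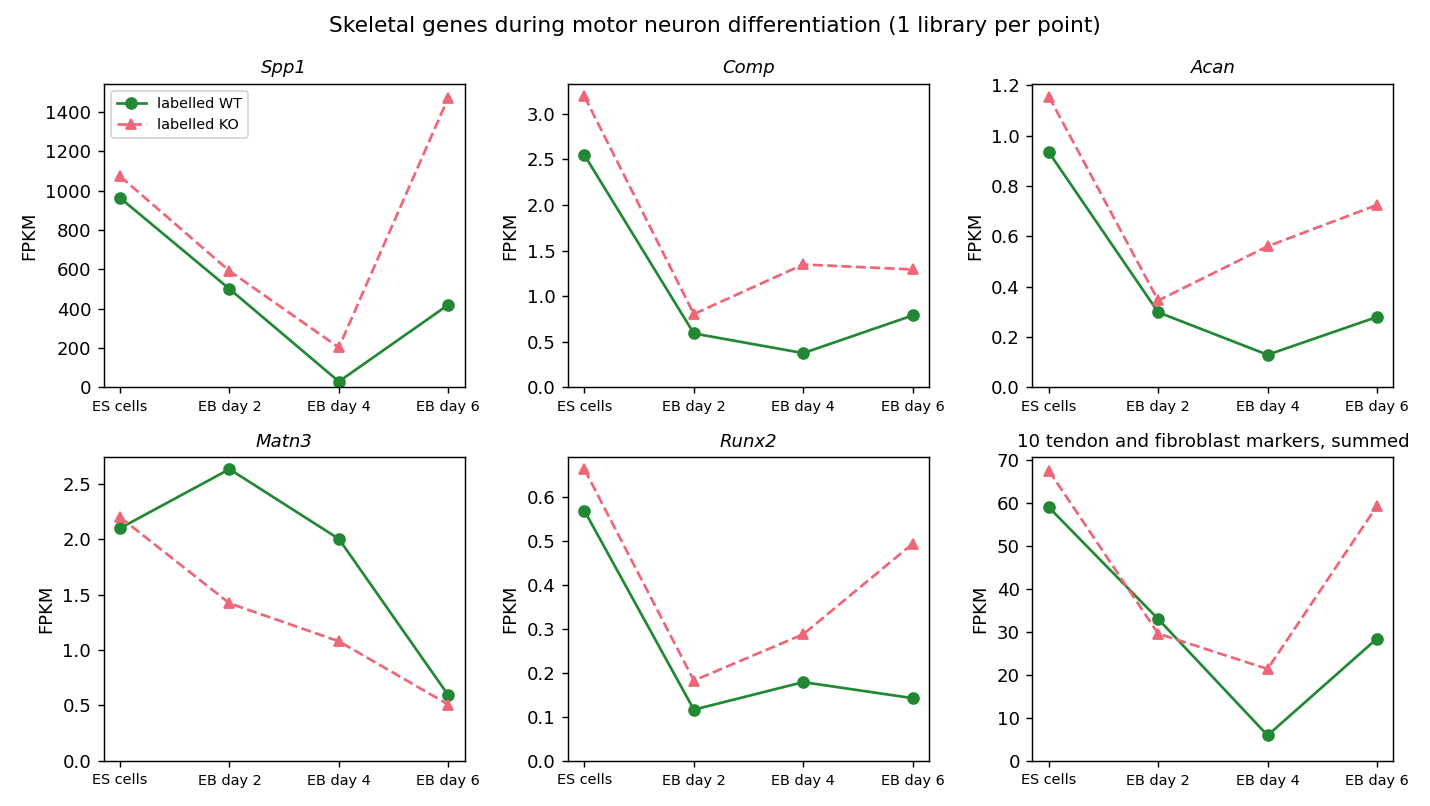
FPKM in ES cells and in EBs of days 2, 4 and 6, with 1 library per point, labelled WT (circles) and KO (triangles), for *Spp1*, *Comp*, *Acan*, *Matn3* and *Runx2* and for the sum of 10 tendon and fibroblast markers. *Spp1* and the marker sum both have their lowest point at day 4 in both genotypes, 28.5 and 5.92 FPKM in WT.

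Counted at any level, KO over WT, 1 of the 10 genes was past 2-fold higher and 1 lower in ES cells, against 5.59% and 8.51% of all loci. At day 2 these counts were 1 and 2, against 7.80% and 8.49%. At day 4 they were 6 and 1, against 22.2% and 8.57%, and at day 6 they were 7 and 0, against 19.0% and 13.4%. The counts of higher genes at days 4 and 6 were above the background. Most of them rest on values far below 1 FPKM, however. Of the genes above 1 FPKM in at least 1 library, *Spp1* and *Comp* were past 2-fold higher at day 4, 2 of 3 and none lower, against 12.1% and 4.43% of all such loci. *Comp* passed the limit of 1 FPKM only through the KO library, in which it was the higher, and with 1 FPKM added to both values its log2 ratio was 0.77, so this count is no support for a change. At day 6 it was *Spp1*, 1 of 2 and none lower, against 10.5% and 9.93%. In ES cells 0 of 4 such genes were past 2-fold, against 0.541% higher and 0.591% lower, and at day 2 it was 0 of 2, against 1.19% and 1.40%.

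Several of the marker lists moved with these values. The 10 tendon and fibroblast markers summed to 58.9 and 67.5 FPKM in ES cells WT and KO, 33.0 and 29.6 FPKM at day 2, 5.92 and 21.4 FPKM at day 4, and 28.4 and 59.2 FPKM at day 6. At day 4, 8 of 10 were past 2-fold higher in KO and none lower, and at day 6 these counts were 5 and 0. Of those above 1 FPKM in at least 1 library, 7 of 9 and 4 of 8 were higher and none lower. *Col1a1* was at 158 and 170 FPKM in ES cells, 1.23 and 9.74 FPKM at day 4, and 17.0 and 47.7 FPKM at day 6, whereas *Col2a1* was at 11.1 FPKM in WT and 4.68 FPKM in KO at day 6. Of the 10 muscle markers, which summed to 10.5 and 83.6 FPKM at day 4, 6 were past 2-fold higher in KO at day 4 and 3 at day 6, with none lower. Of those above 1 FPKM, 3 of 5 and 1 of 5 were higher and none lower. Most of the KO sum at day 4 was *Mylpf*, at 3.84 and 69.1 FPKM in WT and KO. *Mylpf* was also at 170 and 230 FPKM in ES cells WT and KO. Of the 12 osteoclast genes 6 and 5 were higher at days 4 and 6 and none lower. Of the 6 above 1 FPKM at each day, 4 and 3 were higher. Of the 20 other bone genes 10 were higher and 1 lower at day 4, and 11 and 2 at day 6. Above 1 FPKM these counts were 4 and 1 of 9 at day 4, and 6 and 2 of 12 at day 6. The 20 other cartilage genes were more mixed, with 6 higher and 1 lower at day 4 and 6 and 4 at day 6. Above 1 FPKM they were 2 and 0 of 8 at day 4, and 1 and 2 of 6 at day 6. Of the 9 macrophage markers, which summed to 1.06 and 4.50 FPKM at day 6, 6 were higher at that day and none lower. Only 2 of them were above 1 FPKM, both higher. Over all loci at any level, 22.2% were higher and 8.57% lower at day 4, and 19.0% and 13.4% at day 6. Above 1 FPKM in at least 1 library these shares were 12.1% and 4.43% at day 4, and 10.5% and 9.93% at day 6. ES cells of this study were kept on feeder fibroblasts, per the labels. The 10 neuron markers summed to 1070 FPKM in WT and 138 FPKM in KO at day 6, all 10 past 2-fold lower in KO. The part of these cell types in the levels of *Spp1*, *Comp* and the others was not tested.

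The ChIP-seq peak lists of TAF9B and RNA POL2 came from EBs enriched in motor neurons of another line, HBG3, with 1 library per antibody. No TAF9B peak and no RNA POL2 peak had its midpoint within 5 kb of the start of any of the 10 genes. Of 19848 loci, 25.8% had a TAF9B peak and 37.7% an RNA POL2 peak within 5 kb. Within 50 kb a TAF9B peak was listed for *Matn3*, *Comp*, *Sp7* and *Bglap*, 4 of 10 against 54.3% of all loci. The same 4 genes had an RNA POL2 peak within 50 kb, against 56.9%.

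The nearest TAF9B peak lay 9.97 kb from the start of *Comp*, at chr8:72907344-72907495 downstream of the gene, with a score of 50.9, below the median score of the list, 83.3. For *Bglap* it lay 25.6 kb upstream, at chr3:88213899-88214126, with a score of 103. The nearest one to *Runx2* lay 78.3 kb from its start, inside the gene body, and for none of the other 9 genes did the nearest TAF9B peak lie inside the gene. Which gene a distant peak belongs to was not tested.

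Like the others of the 10 genes, *Spp1* had neither peak within 5 kb of its start. It was at 419 FPKM in EBs of day 6 labelled WT, but its nearest RNA POL2 peak lay 73.3 kb and its nearest TAF9B peak 325 kb from its start. Of 967 loci above 100 FPKM in that library, 78.8% had an RNA POL2 peak and 36.8% a TAF9B peak within 500 bp of the start, and *Spp1* was the only one of the 10 genes among them. The RNA-seq and ChIP-seq cells were of different lines, and per the study's methods the EBs for ChIP-seq were differentiated for longer than those of day 6. The part of these differences was not tested.

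The genes most alike in their pattern over the 11 libraries were sought by Pearson's r of log2(FPKM + 1), among 15662 genes above 1 FPKM somewhere, and r is given as a description that rests mostly on the pair of column libraries. Closest to the mean profile of the 4 cartilage matrix genes were *Lmo7* (0.99), *Pdlim5* (0.99), *Mmp13* (0.99), *Sgms2* (0.98) and *Aspn* (0.97). *Mmp13*, the collagenase of hypertrophic chondrocytes and osteoblasts, was at 81.4 and 80.5 FPKM in column WT and KO and 0.402 FPKM in cord. *Aspn*, which encodes asporin of the cartilage and tendon matrix, was at 128, 190 and 0.490 FPKM. Closest to the mean profile of the 4 bone matrix genes were *Alpk3* (0.99), *Ankrd9* (0.99), *Tbx15* (0.98), *H6pd* (0.98) and *Map3k8* (0.98). *Alpk3*, a kinase gene of heart and skeletal muscle, was at 22.7, 19.1 and 0.0697 FPKM, so high likeness also picked a gene of another tissue in the column.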

How the data were processed

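RNA-seq was analysed in 11 libraries and ChIP-seq as the peak lists of TAF9B and RNA POL2. The authors prepared poly-A libraries, mapped reads against RefSeq genes with TopHat and ran Cuffdiff, which gave the FPKM values as deposited. For ChIP-seq they used Bowtie on mm9, then MACS, whose score is deposited with each peak. Versions and options are not given in the sources used here. The tables also hold the fold changes and p-values of the authors' Cuffdiff comparisons, which were not used. No read counts are given, so the depth, and with it the counting error of each value, is unknown.

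Tables were joined by RefSeq identifier and locus, and rows with status FAIL or HIDATA were left out. Of the loci, 22834 received a symbol, and 19848 overlapped the GENCODE vM1 gene of the same symbol, so the coordinates of the tables match mm9. Peak distances ran from the peak's midpoint to the gene's start. Ratios are log2 ratios without a pseudocount, and a gene listed at 0 in 1 library counts as past any limit and as the extreme value in medians. A gene past 2-fold is called without a test. Levels across tables were not rescaled. The trend with transcript length (the longest transcript of GENCODE vM1) was fitted by lowess (fraction 0.3). Counting was tested on simulated data.

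The members and all lists were chosen with earlier results of these data known. All 10 members are named in the text. From each other list the counts are given and, from the lists of cartilage, bone and osteoclast genes, up to 3 genes with the highest and 3 with the lowest ratio, above 1 FPKM in at least 1 library, and for likeness the 5 genes with the highest r. *Sox9*, the collagen genes, *Supt3* and the genes beside members in the genome were named after their values were seen. Not every gene that the rule names is reported here. Hba-a1, Hbb-b1, Ahsp and Cd68 of the marker lists were not matched. The 5 red cell markers matched summed to 21.6 FPKM in column WT, 36.4 FPKM in column KO and 12.1 FPKM in cord, and the 9 macrophage markers to 207, 311 and 123 FPKM. Scripts ran in Python 3.11.15, with pandas 2.3.3 and numpy 2.4.6 for tables, statsmodels 0.14.6 for lowess, scipy 1.17.1 for ranks and matplotlib 3.10.9 for plots.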

Additional observations from a re-analysis of the deposited data

How the results depend on the processing

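The counts of the column comparisons were recomputed with 1 or 0.1 FPKM added, ratios centred on the median of expressed loci, a 4-fold limit, the level filter and, chosen after seeing the data, with the length trend removed, and those against cord also with the cord rescaled by the factor of 1.09 between both listings of the ES WT library. The counts of KO over WT in culture among genes above 1 FPKM were recomputed with 1 FPKM added, centred, and with a limit of 0.1 FPKM, and for ES cells and days 2 and 4 these alternatives were chosen after seeing the data. The counts in culture at any level were not recomputed. Of 113 alternative values none turned a called direction, but most were counts, which cannot turn. Among the ratios of single genes only *Runx2*, in column KO over WT, was called. Of all 113 values, 79 stayed within 1.5 times or on the same side. Among these were all counts of genes higher in column than in cord. In column KO, however, this count fell from 10 to 9 with 1 FPKM added, as *Runx2* was lost with a log2 ratio of 0.85. The size of these ratios was less stable than the counts, as the median log2 ratio over cord, 5.21 in column WT and 5.31 in KO, was 2.98 and 2.54 with 1 FPKM added and 4.76 and 4.65 with 0.1 FPKM added, alternatives chosen after seeing the data. The 1 gene past 2-fold lower in column KO than WT, *Runx2*, was lost (count of 0) with 1 FPKM added, with 0.1 FPKM added, at a 4-fold limit and with the length trend removed. Among the genes not called, *Comp* turned to a log2 ratio of -0.04 when centred. *Comp*, *Matn1*, *Spp1* and *Bglap* turned lower with the length trend removed. The genes counted as present in culture depend on the limit. At 0.5 FPKM, which 55.1% to 58.4% of all loci passed, they were 5 in ES cells WT, 4 at day 2 KO, and 3 and 4 at day 6 WT and KO. At 0.1 FPKM, which 64.3% to 68.6% of all loci passed, they were 6 and 7 in ES cells WT and KO, 7 in both libraries of day 2, 6 in both of day 4, and 8 and 9 at day 6. With that limit 6 of 9 genes were past 2-fold higher in day 6 KO, against 14.6% of all such loci, 4 of 7 higher and 1 lower in day 4 KO, against 17.0% and 5.70%, and 1 of 7 higher in day 2 KO, against 3.49%. Of these, *Dmp1* at day 6 and *Matn1* at day 4 passed the limit only through the KO library, and *Bglap*, the lower gene at day 4, only through WT, so the limit itself favoured these 3 genes. Among genes above 0.1 FPKM in both libraries, a limit chosen after seeing the data, 5 of 8 were higher at day 6 against 11.6% of all such loci, 3 of 5 at day 4 against 13.3% and 1 of 7 at day 2 against 1.78%, with none lower. With 1 FPKM added, 1 gene, *Spp1*, was past 2-fold higher at day 4, and *Comp* was lost. For TAF9B peaks the count of 4 genes within 50 kb was 0 within 5 kb and 7 within 100 kb, against 25.8% and 68.5% of all loci. No paired analysis was possible because each condition has 1 library, and for the same reason no library could be left out. Depth is unknown, so values under 1 FPKM have no known error.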
